A study of Homo sapiens with 4 samples.

Results

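HOX genes encode homeodomain transcription factors that give cells their position along the body axis. In the deposited expression tables of 4 libraries from anaplastic thyroid cancer (ATC) cells, 39 of 26485 gene names belong to the 4 human HOX clusters, chosen as every name made of HOX, a cluster letter from A to D and a number. The HOXA cluster holds 11 of them, the HOXB cluster 10, the HOXC cluster 9 and the HOXD cluster 9. SW1736 and 8505C are established human ATC cell lines, and each was measured as wild-type (wt) cells without paclitaxel and as a paclitaxel-resistant (PTX) derivative. SW1736-PTX and 8505C-PTX cells had been selected over 6 months with paclitaxel, a drug that stabilizes microtubules, from 1 nM up to 1.5 µM, and were then kept in 1.5 µM. Past selection and the drug still present can therefore not be told apart in these cells, and the sources used here do not say whether a resistant line is 1 clone. Each of the 4 conditions is 1 mRNA library, so that no difference could be set against the spread between cultures and no p-value was computed.

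The genes of a HOX cluster lie in a row on 1 strand, numbered by paralogue group, and genes of the same number in different clusters descend from 1 ancestral gene. In the embryo, low-numbered genes at the 3′ end of a cluster are used from the hindbrain backwards, and high-numbered genes at the 5′ end are used further towards the tail. Cultured cells often keep the combination of HOX genes of the place they came from. The thyroid arises from the floor of the anterior foregut.

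Expression was read as FPKM, the number of aligned fragments scaled to gene length and sequencing depth, which allows levels of different genes to be compared. A gene was counted as expressed above 0.5 FPKM, the limit of the study's methods. The ratio of coverage to FPKM gave between 43.5 and 57.9 M reads of 75 bp per library, and between 12393 and 13430 gene names were above 0.5 FPKM. Of the thyroid markers, thyroglobulin (TG) reached at most 0.00586 FPKM, and 2 to 3 of 11 markers were above 0.5 FPKM in each library. The summed FPKM of the marker lists ranged from 1272 to 3493 for epithelial genes, from 1545 to 5112 for mesenchymal genes, from 0.0358 to 56.1 for endothelial genes, from 0.913 to 5.06 for blood genes and from 53.5 to 122 for neural genes. These sums can rest on few members. The epithelial sums came from keratins, with EPCAM at most at 0.0806 FPKM and CDH1 at most at 0.0277. The neural sums were mostly TUBB3, between 53.4 and 122 FPKM, and the endothelial maximum was nearly all CDH5, at 55.9. In bulk RNA, fewer cells that use a gene and less RNA per cell cannot be told apart.

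Before any change is read from the SW1736 pair, the library labelled SW1736-PTX must be described, since its HOX genes resembled those of 8505C and not those of SW1736 wt. The 12 HOX genes above 0.5 FPKM in at least 1 library differed between SW1736-PTX and SW1736 wt by 2.98 on average, as absolute values on the log2(FPKM + 0.1) scale. The same 12 genes differed by 1.14 between SW1736-PTX and 8505C wt, and by 0.47 between SW1736-PTX and 8505C-PTX. The 8505C pair differed by 1.33 and the wt libraries of the 2 lines by 2.15. Over all 14692 genes above 0.5 FPKM in at least 1 library, the mean absolute difference of SW1736-PTX was 1.24 from SW1736 wt, 0.97 from 8505C wt and 0.56 from 8505C-PTX. Of the 4 thyroid transcription factors on the marker list, NKX2-1, PAX8 and FOXE1 were split the same way and HHEX was not. NKX2-1 was listed at 0 in SW1736 wt, whereas it stood at 36.3 FPKM for SW1736-PTX, 30.5 for 8505C wt and 39 for 8505C-PTX, while PAX8 stood at 38.2 FPKM for SW1736 wt and between 0.123 and 0.206 in the other 3 libraries. FOXE1 stood at 26.6 FPKM for SW1736 wt and between 0.0443 and 0.511 in the other 3, whereas HHEX stood at 12.4 FPKM for SW1736 wt, 11.7 for SW1736-PTX, 5.92 for 8505C wt and 14.4 for 8505C-PTX. Another exception was CDH5, an endothelial cadherin, which stood at 55.9 FPKM for 8505C wt and 4.53 for 8505C-PTX but at 0.225 for SW1736-PTX and at 0 for SW1736 wt. Mesenchymal markers also differed within the SW1736 pair, with 5 of 7 above 0.5 FPKM and a sum of 5112 FPKM for SW1736 wt against 6 of 7 and 1892 for SW1736-PTX, and COL1A1 at 153 FPKM against 2.19. In 8505C wt and 8505C-PTX, 3 and 5 of 7 were above 0.5 FPKM, with sums of 1545 and 1637. Among the epithelial markers KRT19 differed most within the SW1736 pair, at 266 FPKM against 0.535, and the part of these markers in the HOX differences was not tested. The origin of the SW1736-PTX cells was not tested. The main counts of called genes in the SW1736 pair are also given for SW1736-PTX against 8505C wt. Log2 fold changes of single genes are given against 8505C wt for some genes only.

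**Figure D1:**
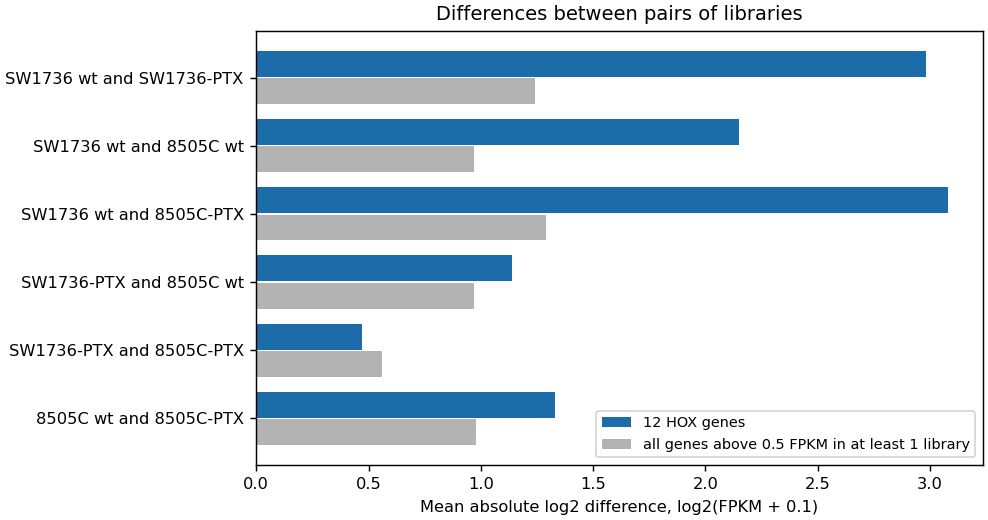
Mean absolute difference on the log2(FPKM + 0.1) scale for the 6 pairs of libraries, over the 12 HOX genes above 0.5 FPKM in at least 1 library (blue) and over all 14692 such genes (grey). The 3 pairs with SW1736 wt reach from 2.15 to 3.08 over the HOX genes, and the 3 pairs without it from 0.47 to 1.33.

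The gap between pairs with and without SW1736 wt depended on low levels: with a pseudocount of 1 FPKM in place of 0.1, the smallest distance of SW1736 wt from another library was 0.77 and the largest among the other 3 libraries was 0.81. These belong to the wt libraries and to the 8505C pair. With the same pseudocount, SW1736-PTX lay 1.38 from SW1736 wt, 0.76 from 8505C wt and 0.24 from 8505C-PTX, in the same order as before. Reads of neighbouring genes can also be mixed, because 18 of the 39 HOX genes overlap another listed gene and 14 overlap an antisense gene, and the strand setting of the counting is not given in the sources used here. The 4 expressed HOX genes with no overlap, HOXA11, HOXB9, HOXC8 and HOXC9, gave distances of SW1736-PTX of 3.70 from SW1736 wt, 0.78 from 8505C wt and 0.33 from 8505C-PTX.

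Read by position, the code was narrow in every library. SW1736 wt had 3 HOX genes above 0.5 FPKM, HOXC8, HOXA11 and HOXC13. SW1736-PTX had 9, which were HOXA3, HOXA5, HOXB9, HOXC6, HOXC8, HOXC9, HOXC10, HOXC11 and HOXC13. In 8505C wt the same genes without HOXC11 made 8, and in 8505C-PTX HOXA6 and HOXC4 were added to the 9 of SW1736-PTX, which made 11. HOXC8 and HOXC13 were the 2 HOX genes above the limit in all libraries. Of the HOX genes expressed in SW1736-PTX, 88.9% were expressed in 8505C wt and 22.2% in SW1736 wt. Of those expressed in SW1736 wt, 66.7% were expressed in SW1736-PTX. These shares rest on few genes and were not computed over all genes, so they do not show a likeness particular to the HOX genes.

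**Figure D2:**
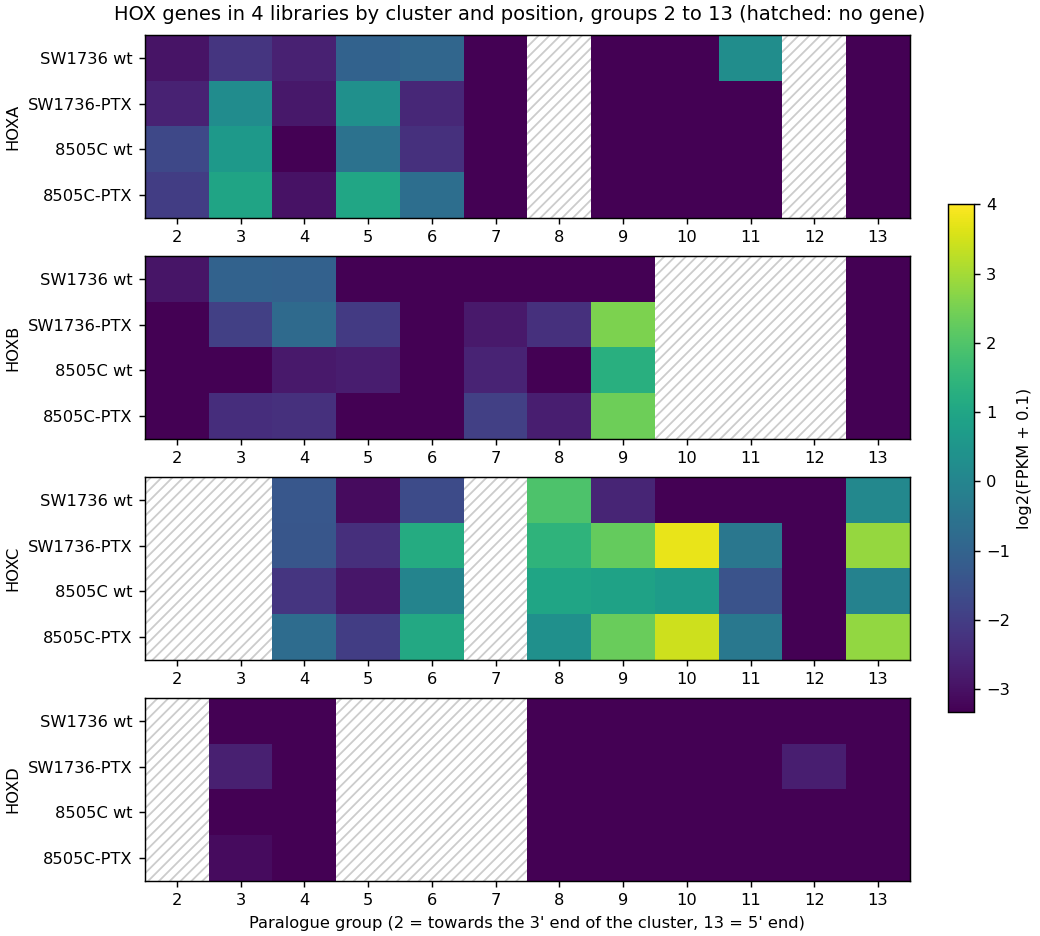
Level of the HOX genes of paralogue groups 2 to 13 on the log2(FPKM + 0.1) scale, with a panel per cluster, a row per library and a column per paralogue group, with 13 at the 5′ end, hatched where the cluster has no such gene. Signal sits in HOXC, in HOXB9 and in HOXA3, HOXA5 and HOXA6, the HOXA11 square is lit in SW1736 wt alone, and the HOXD panel is nearly dark.

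The HOXC cluster (chromosome 12, plus strand) held most of the HOX signal. Its summed level was 5.31 FPKM for SW1736 wt, 31.1 for SW1736-PTX, 7.35 for 8505C wt and 27.1 for 8505C-PTX. This was 64.2%, 76.6%, 59.8% and 72.4% of the FPKM of all HOX genes in the same order, so that HOXC led in every library. Summed over all 39 genes, the level was 8.28 FPKM for SW1736 wt, 40.7 for SW1736-PTX, 12.3 for 8505C wt and 37.4 for 8505C-PTX. The HOXA cluster (chromosome 7, minus strand) lay between 2.15 and 4.47 FPKM. The HOXB cluster (chromosome 17, minus strand) summed to 0.814 FPKM for SW1736 wt and to between 2.50 and 6.67 in the other libraries, most of it from HOXB9. The HOXD cluster (chromosome 2, plus strand) was listed at 0 for all 9 genes in SW1736 wt and reached at most 0.379 FPKM in sum, in SW1736-PTX.

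Along the axis, the weight of the code by summed FPKM lay in different paralogue groups in SW1736 wt and in the other libraries. Groups 4 to 8, the middle of the clusters, held 67.2% of the HOX FPKM in SW1736 wt, against 17.9% in SW1736-PTX, 30.5% in 8505C wt and 17.9% in 8505C-PTX. Most of the share in SW1736 wt came from HOXC8 alone, with 3.75 of 5.56 FPKM. By number of expressed genes, SW1736 wt had 1 in groups 4 to 8 and 2 in groups 9 to 13, HOXA11 and HOXC13. Groups 9 to 13, the 5′ ends, held 25.9% in SW1736 wt, 78% in SW1736-PTX, 55.2% in 8505C wt and 75.9% in 8505C-PTX. In FPKM, the middle groups summed to between 3.75 and 7.28 in all libraries, while the 5′ groups summed to 2.14 for SW1736 wt, 6.78 for 8505C wt, 28.4 for 8505C-PTX and 31.7 for SW1736-PTX. The 3′ groups 1 to 3 summed to between 0.577 and 2.34 FPKM. The member with the highest level was HOXC8 in SW1736 wt, HOXB9 in 8505C wt and HOXC10 in the PTX libraries.

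Among the expressed genes, the lowest-numbered was HOXA3 (chr7:27106190-27127020, hg38, overlapping the antisense gene HOXA-AS2), known for its role in the development of the pharyngeal organs, the thyroid and parathyroid glands among them. HOXA3 stood at 0.12 FPKM for SW1736 wt, 1.07 for SW1736-PTX, 1.44 for 8505C wt and 1.82 for 8505C-PTX. These levels correspond to about 18, 188, 190 and 295 reads, estimated from the FPKM, the length of the transcript and the depth. HOXA3 was thus low in SW1736 wt alone. HOXA5 (chr7:27141052-27143668), which patterns the lung, the thyroid and other foregut organs, stood at 0.396, 1.19, 0.573 and 1.93 FPKM in the same order. In each line the level of HOXA5 was higher in the PTX library than in the wt library. HOXA6 (chr7:27145583-27147774) stood at 0.437, 0.0775, 0.104 and 0.521 FPKM, from about 21, 4, 4 and 28 reads, and so was nearly absent from SW1736-PTX and 8505C wt. HOXA5 and HOXA6 overlap the antisense gene HOXA-AS3, which itself was at most at 0.0263 FPKM.

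HOXA11 (chr7:27181157-27185216, 2 exons, no overlap with another listed gene), which patterns the forearm, the kidney and the uterus, was found in a single library. HOXA11 stood at 1.11 FPKM for SW1736 wt, from about 145 reads, and was listed at 0 in SW1736-PTX, 8505C wt and 8505C-PTX. The 95% exact Poisson interval of the estimated reads was 122 to 171, which covers counting error only. At the depth of the other libraries, 3 reads on this transcript correspond to between 0.0194 and 0.0258 FPKM. Its antisense neighbour HOXA11-AS was listed at 0.265 FPKM for SW1736 wt and at 0 elsewhere. The HOXA genes between, HOXA7, HOXA9 and HOXA10, were listed at 0 in every library, as was HOXA13.

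HOXB9 (chr17:48621157-48626473, no overlap with another listed gene), a regulator of rib and limb position, was the expressed gene of the HOXB cluster. HOXB9 was listed at 0 in SW1736 wt, whereas it stood at 5.74 FPKM for SW1736-PTX, 2.34 for 8505C wt and 5.17 for 8505C-PTX. Its estimated reads were 860 (95% interval 803 to 919), 264 (233 to 298) and 716 (665 to 770) in the last 3, where 3 reads in SW1736 wt would have given 0.0237 FPKM. HOXB9 thus set SW1736 wt apart from the other libraries. The other HOXB genes stayed below 0.5 FPKM, with HOXB4 highest at 0.482 for SW1736-PTX and 0.387 for SW1736 wt, and HOXB3 at 0.394 for SW1736 wt.

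In the HOXC cluster, HOXC8 (chr12:54009106-54012761, no overlap), which acts in the thoracic region and in cartilage, was the highest HOX gene of SW1736 wt. HOXC8 stood at 3.75 FPKM for SW1736 wt, 2.64 for SW1736-PTX, 1.87 for 8505C wt and 1.17 for 8505C-PTX, from about 443, 369, 196 and 151 reads. In each line its level was lower in the PTX library than in the wt library, by less than the limit for a call. HOXC9 (chr12:54000093-54003336, no overlap), the next gene towards the 5′ end, stood at 0.0705, 4.73, 1.76 and 4.95 FPKM in the same order. The 5 reads estimated for HOXC9 in SW1736 wt have an interval of 2 to 12, against 404 reads in SW1736-PTX. These neighbouring genes were thus ordered differently, with HOXC8 highest and HOXC9 lowest in SW1736 wt.

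HOXC10 (chr12:53985162-53990278, overlapping the antisense gene HOXC-AS3), which acts in motor neurons of the lumbar spinal cord and in hindlimb and lower-body adipose tissue, had the highest level of any HOX gene. HOXC10 was listed at 0 in SW1736 wt, whereas it stood at 13.5 FPKM for SW1736-PTX, 1.56 for 8505C wt and 10.7 for 8505C-PTX. About 1549 reads (1473 to 1628) lay behind the value of SW1736-PTX, 134 (112 to 159) behind that of 8505C wt and 1134 (1069 to 1202) behind that of 8505C-PTX. The PTX libraries were thus far above 8505C wt, which in turn was above SW1736 wt, where 3 reads would have given 0.0310 FPKM. HOXC-AS3 itself was listed at 0 in the wt libraries, at 0.168 FPKM for SW1736-PTX and at 0.411 for 8505C-PTX.

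HOXC11 (chr12:53973126-53976419) overlaps HOTAIR on the other strand and had a low level throughout. HOXC11 was listed at 0 in SW1736 wt, whereas it stood at 0.641 FPKM for SW1736-PTX, 0.27 for 8505C wt and 0.665 for 8505C-PTX. HOXC12 was listed at 0 in all libraries. HOXC13 (chr12:53938792-53946544, overlapping the antisense gene HOXC13-AS), a regulator of keratin genes in hair and nail, lies at the 5′ end of the cluster. HOXC13 stood at 0.96 FPKM for SW1736 wt, 7.02 for SW1736-PTX, 0.847 for 8505C wt and 6.88 for 8505C-PTX, from about 111, 958, 87 and 869 reads. Of the 12 expressed HOX genes, HOXC13 was the one whose levels paired the wt libraries with each other and the PTX libraries with each other most closely.

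Towards the 3′ end of HOXC, the listed spans of HOXC4, HOXC5 and HOXC6 begin at the same base of chromosome 12 (54016852) and overlap, so the split of reads between them is uncertain. HOXC6, which acts in the thoracic region and in mammary and prostate tissue, stood at 0.222 FPKM for SW1736 wt, 2.19 for SW1736-PTX, 0.888 for 8505C wt and 2.06 for 8505C-PTX. HOXC4 lay between 0.12 and 0.504 FPKM and HOXC5 between 0.0166 and 0.151. HOXC6 carried the signal of this stretch in the libraries other than SW1736 wt.

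**Figure D3:**
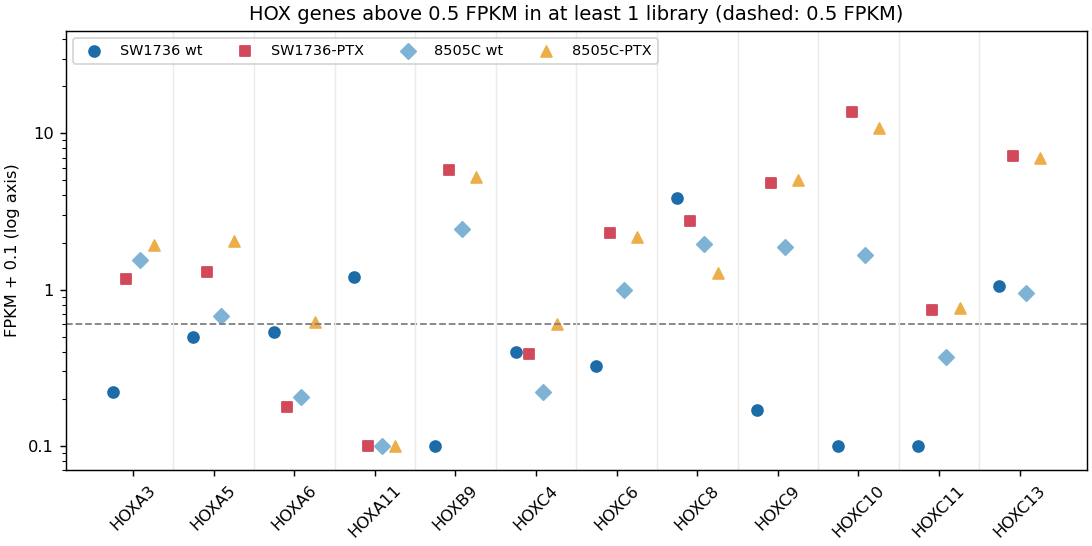
FPKM + 0.1 on a log axis of the 12 HOX genes above 0.5 FPKM in at least 1 library, with 1 point per library and a dashed line at the limit of 0.5 FPKM. HOXB9, HOXC9 and HOXC10 separate SW1736 wt from the other libraries, HOXA11 is above 0 in SW1736 wt alone, and the HOXC13 points form a wt pair near 1 FPKM and a PTX pair near 7.

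The other 27 HOX genes were never above 0.5 FPKM. Of these, 13 were above 0 in at least 1 library and 14 were listed at 0 in all of them, among these HOXB1, HOXB6, HOXB13, HOXD4, HOXD8, HOXD9, HOXD10, HOXD11 and HOXD13. The highest HOXD gene was HOXD1, at 0 in the SW1736 wt table and at 0.27 FPKM for SW1736-PTX, 0.0775 for 8505C wt and 0.238 for 8505C-PTX, and it overlaps the antisense gene HAGLR. The number of HOX genes listed at 0 was 24 for SW1736 wt, 16 for SW1736-PTX, 21 for 8505C wt and 18 for 8505C-PTX, and the PTX library of each line was also the deeper one of its pair.

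For changes between libraries, log2((a + 0.1)/(b + 0.1)) was computed from FPKM for genes that passed 0.5 FPKM in either library compared. A value above 1.5 or below -1.5 was called, which are the limits of the study. Such log2 fold changes understate those of low genes and give no bound where a library is at 0. A HOX gene that is compared because of 1 high library tends to be called, so the counts are descriptions.

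The SW1736 pair asks what differed between the resistant and the parental SW1736 cells. Of the 10 HOX genes compared, 7 were called higher in SW1736-PTX (70%), against 15.7% of the 14202 genes compared. These were HOXA3, HOXB9, HOXC6, HOXC9, HOXC10, HOXC11 and HOXC13, and their log2 fold changes ran from 2.41 for HOXA3 to 7.09 for HOXC10. HOXB9 had 5.87 and HOXC9 had 4.82. HOXA11 was called lower, with -3.60, which made 1 of 10 against 10.2% of all genes. The median log2 fold change was 2.79 over the HOX genes and 0.01 over all genes. Against 8505C wt in place of SW1736 wt, a comparison that shares the SW1736-PTX library, 2 of 9 HOX genes were called higher in SW1736-PTX (22.2%), HOXC10 with 3.04 and HOXC13 with 2.91, and none lower, against 15.1% and 5.23% of 13824 genes. HOXB9 then had 1.26, HOXC9 1.37 and HOXA3 -0.39. Of the 7 genes called against SW1736 wt, 4 were still called with a pseudocount of 1 FPKM and 1, HOXC13, where both libraries had to pass the 0.5 FPKM limit.

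In the 8505C pair, 4 of 11 HOX genes were called higher in 8505C-PTX (36.4%), against 15.0% of 13794 genes, and none lower, against 5.89%. The genes were HOXC13 with a log2 fold change of 2.88, HOXC10 with 2.71, HOXA6 with 1.60 and HOXA5 with 1.59. HOXC4 with 1.46, HOXC9 with 1.44, HOXC6 with 1.13, HOXB9 with 1.11 and HOXC11 with 1.05 lay below the limit, and HOXC8, with -0.63, was the 1 gene of the 11 with a negative value. The median was 1.44 over the HOX genes and 0.11 over all genes. HOXA5 and HOXA6 lay close to the limit and were not called once the median of all genes was subtracted, which left 2 genes, and all 4 called genes overlap an antisense gene in the annotation.

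Across the lines, 9 HOX genes were compared in each PTX against wt pair, and the sign of the log2 fold change was the same for all 9. HOXA6, with -1.60 and 1.60, was not among them, being below 0.5 FPKM in both SW1736 libraries. Agreement in sign was not computed over all genes. HOXC10 and HOXC13 were called higher in both pairs, at 7.09 and 2.71 for HOXC10 and at 2.75 and 2.88 for HOXC13. The agreement of all 9 signs held with SW1736 wt as the reference of SW1736-PTX. With 8505C wt as its reference, HOXA3 was at -0.39 and HOXC8 at 0.48, opposite in sign to 0.32 and -0.63 in the 8505C pair. HOXA5, HOXB9, HOXC6, HOXC9, HOXC10, HOXC11 and HOXC13 were positive in both of these comparisons, which share the 8505C wt library. Whether the change of HOXC10 differed between the lines was not tested, since no condition has a second library.

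**Figure D4:**
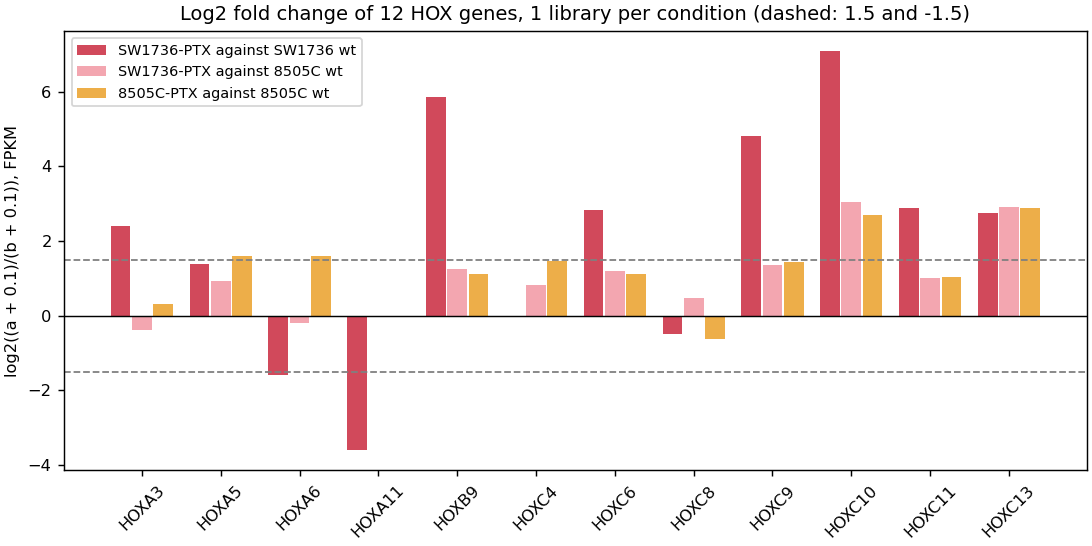
Log2 fold change, log2((a + 0.1)/(b + 0.1)) on FPKM, of the 12 expressed HOX genes for SW1736-PTX against SW1736 wt (red), SW1736-PTX against 8505C wt (pink) and 8505C-PTX against 8505C wt (orange), with dashed lines at 1.5 and -1.5; pink and orange share the 8505C wt library. HOXC10 and HOXC13 are beyond 1.5 in all 3, whereas the bar of HOXB9 drops from 5.87 to 1.26 when 8505C wt replaces SW1736 wt; HOXA6 passed the 0.5 FPKM limit in the orange pair alone.

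The wt libraries also differed from each other, in a comparison that shares SW1736 wt with the first. In 8505C wt against SW1736 wt, 5 of 9 HOX genes were called higher (55.6%), against 7.73% of 13457 genes, and HOXA11 was called lower (11.1%), against 9.92%. The higher genes were HOXB9 with a log2 fold change of 4.61, HOXC10 with 4.05, HOXC9 with 3.45, HOXA3 with 2.80 and HOXC6 with 1.62. HOXC13 had -0.16 and HOXC8 -0.97. None of the 5 higher genes was compared where both libraries had to be above 0.5 FPKM, since all of them were below that in SW1736 wt.

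The PTX libraries were the pair with the fewest calls. Of 11 HOX genes compared in 8505C-PTX against SW1736-PTX, HOXA6 was called higher with 1.81 (9.09%) and none was called lower, against 3.70% and 4.09% of 13986 genes. The median was 0.05 over the HOX genes and -0.01 over all genes. Among the genes of highest level, HOXC10 had -0.34, HOXC13 -0.03, HOXC9 0.07 and HOXB9 -0.15. The value of HOXA6 rests on about 4 and 28 reads.

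The clusters also hold noncoding genes, among them HOTAIR, a long noncoding RNA of the HOXC cluster known for its contact with Polycomb proteins, and the miR-196 genes, whose microRNA targets HOX messenger RNAs. Of 30 such transcripts listed, 25 were found, and in the SW1736 pair 5 of the 7 compared were called higher and none lower, with a median log2 fold change of 3.36, where 15.7% of all genes were called higher and 10.2% lower. In the 8505C pair 4 of 6 were called higher and none lower, with a median of 2.34, where the shares of all genes were 15.0% and 5.89%. For SW1736-PTX against 8505C wt, 4 of 5 were called higher and none lower, with a median of 2.28, beside 15.1% and 5.23% of all genes. Between the PTX libraries, 0 of 6 were called in either direction, where 3.70% of all genes were called higher and 4.09% lower in 8505C-PTX. HOTAIR stood at 0.0232 FPKM for SW1736 wt, 2.35 for SW1736-PTX, 0.246 for 8505C wt and 2.24 for 8505C-PTX. Its log2 fold changes were 4.31 in the SW1736 pair, 2.82 for SW1736-PTX against 8505C wt and 2.76 in the 8505C pair. HOTAIR thus stood higher in the PTX library of each line. So did HOXC10, HOXC13 and most other HOX genes compared in both pairs, among them HOXC11, which overlaps HOTAIR. HOXC-AS1 was listed at 0 in SW1736 wt, whereas it stood at 1.26, 0.181 and 2.84 FPKM in the others, and HOXC-AS2 stood at 0.0995, 1.12, 0.122 and 1.06 FPKM in the 4 libraries. HOXC13-AS, at 0.536, 0.398, 0.087 and 0.819 FPKM, was called in the 8505C pair but not in the SW1736 pair. It was also called lower in 8505C wt against SW1736 wt, with -1.77.

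From the HOXD cluster, whose protein-coding genes were all below 0.5 FPKM, the noncoding gene HAGLR was read at 0.0333 FPKM for SW1736 wt, 5.3 for SW1736-PTX, 1.49 for 8505C wt and 4.39 for 8505C-PTX. Its log2 fold change was 5.34 in the SW1736 pair and 1.76 for SW1736-PTX against 8505C wt. In the 8505C pair it was 1.50, just under the limit for a call. HAGLROS, which lies within the span of HAGLR on the other strand, had its highest level in SW1736 wt, with 0.868, 0.288, 0 and 0.185 FPKM in the same order. HOTAIRM1 of the HOXA cluster was listed at 0 in all libraries.

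**Figure D5:**
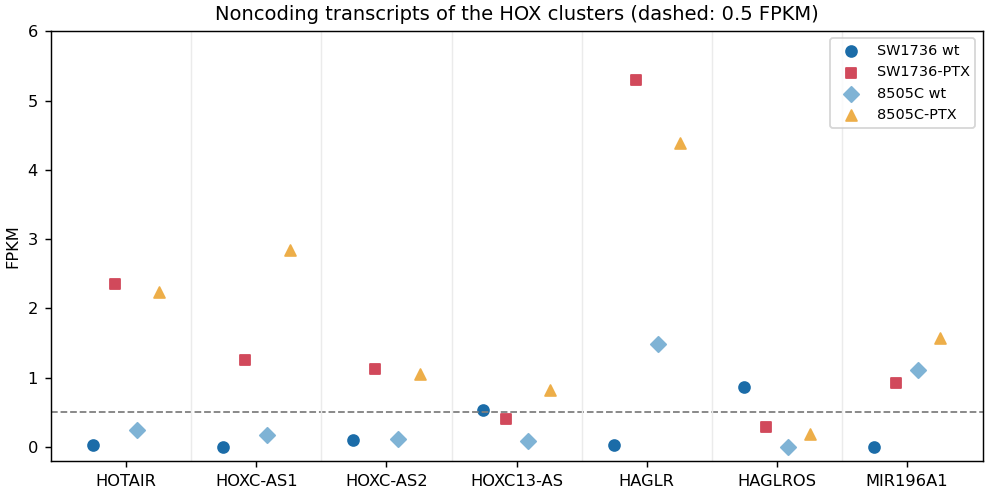
FPKM of 7 noncoding transcripts of the HOX clusters, with 1 point per library and a dashed line at 0.5 FPKM. HOTAIR, HOXC-AS1 and HOXC-AS2 stand above 1 FPKM in the PTX libraries and below 0.25 in the wt libraries, HAGLR is lowest in SW1736 wt at 0.0333, and MIR196A1 is at 0 in SW1736 wt.

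The miR-196 sequences are shown because HOXC8 is a known target of miR-196 and was the expressed HOX gene whose levels ran against those of the miR-196a-1 locus, a pair chosen after the values were seen. In RefSeq (GRCh38.p14), miR-196a-5p is made from MIR196A1 (chr17:48632532-48632553, minus strand, next to HOXB9) and MIR196A2 (chr12:53991762-53991783, plus strand, between HOXC10 and HOXC9), and miR-196b-5p from MIR196B (chr7:27169528-27169549, minus strand, between HOXA9 and HOXA10). Both share a seed, bases 2 to 8, in capitals.
hsa-miR-196a-5p: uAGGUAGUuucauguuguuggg
hsa-miR-196b-5p: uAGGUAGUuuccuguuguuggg
The MIR196A1 locus was at 0 in the SW1736 wt table and at 0.924 FPKM for SW1736-PTX, 1.11 for 8505C wt and 1.58 for 8505C-PTX, while MIR196A2 and MIR196B were listed at 0 throughout. The level of HOXC8 was highest in SW1736 wt, followed by SW1736-PTX, 8505C wt and 8505C-PTX, the reverse of the order of MIR196A1. The listed span of MIR196A1 is short (chr17:48632490-48632559), so its values rest on few reads. No reads were estimated for it, and its order over the libraries was not tested against counting error. There are only 4 libraries, and reads of an mRNA library at this locus come from longer transcripts and do not measure the mature microRNA.

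The reverse complement of the seed, ACTACCT, was searched on the transcript strand of 3′ UTRs of MANE transcripts (1 representative transcript per gene). It was present in the 3′ UTR of 8 of 39 HOX genes (20.5%), against 1331 of 18780 transcripts (7.09%). Among the 12 expressed HOX genes, HOXC8 and HOXA5 held it, 3 times in HOXC8 and once in HOXA5. The sites are given on the transcript strand in hg38, with the match in capitals.
HOXC8, chr12:54011494-54011516: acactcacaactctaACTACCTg
HOXC8, chr12:54012230-54012252: ataaatctttaacatACTACCTa
HOXC8, chr12:54012370-54012392: ccagcgtattttatcACTACCTa
HOXA5, chr7:27141387-27141409: gatatttttattcaaACTACCTa
The HOXC8 sites begin 128, 864 and 1004 bases after the stop codon in a 3′ UTR of 1388 bases. HOXA5, the other gene with a match, did not share the order of HOXC8 and was higher in 8505C-PTX than in any other library. A match of letters is a description and does not show binding.

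HOX proteins bind DNA together with TALE homeodomain proteins of the PBX, MEIS and PKNOX families. All 9 TALE genes listed were found and 8 were compared. In the SW1736 pair 0 of 8 were called higher and PBX3 was called lower, beside 15.7% and 10.2% of all genes. The log2 fold change of PBX3 was -1.88 and the list median -0.43. In the 8505C pair 4 were called higher and none lower, with a median of 0.82, beside 15.0% and 5.89% of all genes. For SW1736-PTX against 8505C wt, 2 of 8 were called higher and none lower, beside 15.1% and 5.23% of all genes, and PBX3 had -0.50. MEIS3 stood at 13.2 FPKM for SW1736 wt, 14.2 for SW1736-PTX, 0.513 for 8505C wt and 27.7 for 8505C-PTX. For MEIS3, 8505C wt was the low library, whereas for HOXB9, HOXC9 and HOXC10 it was SW1736 wt.

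Polycomb proteins keep silent HOX genes silent through histone H3 lysine 27 methylation, and Trithorax proteins and H3K27 demethylases act against them. Of 33 Polycomb genes 32 were found, all above 0.5 FPKM in every library. In the SW1736 pair 0 were called higher and PCGF6 lower, with -2.75 and a list median of -0.20, and in the 8505C pair CBX7 was called higher with 2.06 and EZH2 and EED lower, with a list median of -0.08. EZH2, the main H3K27 methyltransferase, stood at 43.4 FPKM for SW1736 wt, 36 for SW1736-PTX, 18.7 for 8505C wt and 6.42 for 8505C-PTX, with log2 fold changes of -0.27 and -1.53. The level of EZH2 differed between the wt libraries, with -1.21 for 8505C wt against SW1736 wt, more than within the SW1736 pair but less than within the 8505C pair. Unlike most HOX genes above, EZH2 in SW1736-PTX stood nearer to SW1736 wt than to the 8505C libraries, and 8505C-PTX against SW1736-PTX gave -2.47. Of 23 Trithorax and demethylase genes, MLLT3 and KDM6B were called higher in the SW1736 pair, and KDM6B higher and WDR5 and PSIP1 lower in the 8505C pair, with list medians of -0.01 and 0.01. For SW1736-PTX against 8505C wt, 1 of 32 Polycomb genes and 2 of 23 Trithorax and demethylase genes were called higher and none lower. Of all genes, 15.1% were called higher and 5.23% lower in that comparison. The shares were 15.7% and 10.2% in the SW1736 pair and 15.0% and 5.89% in the 8505C pair. KDM6B, an H3K27 demethylase, stood at 2.74, 9.64, 2.92 and 9.37 FPKM in the 4 libraries, and so was higher in each PTX library than in its wt library, with log2 fold changes of 1.78 and 1.65. SW1736-PTX against 8505C wt gave 1.69 for KDM6B.

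Retinoic acid is a classical inducer of HOX genes, the 3′ genes first. Of 19 genes of its receptors, synthesis and breakdown, 11 were compared, and 2 were called higher and 2 lower in the SW1736 pair, with a median of 0.57, beside 15.7% and 10.2% of all genes. In the 8505C pair 5 of 11 were called higher and none lower, with a median of 1.32, beside 15.0% and 5.89% of all genes. For SW1736-PTX against 8505C wt, 3 of 11 were called higher and none lower, with a median of 1.06, beside 15.1% and 5.23% of all genes. RARB, a retinoic acid receptor that is itself a retinoic acid target, stood at 0.0333 FPKM for SW1736 wt, 9.84 for SW1736-PTX, 1.92 for 8505C wt and 10.9 for 8505C-PTX. Its log2 fold changes were 6.22 in the SW1736 pair, 2.30 for SW1736-PTX against 8505C wt and 2.44 in the 8505C pair. RARB thus had the same order as HOXC9 over the 4 libraries. The synthesis enzyme ALDH1A3 was called lower in the SW1736 pair, with -3.45, and higher in the 8505C pair, with 2.47.

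Of the genes that flank the clusters, all 25 listed were found, 3 of them under an older symbol, and 20 were compared. In the SW1736 pair SNX10 was called higher and CBX1 lower, with a list median of -0.42, against 15.7% and 10.2% of all genes. In the 8505C pair CALCOCO1, HIBADH and SNX10 were called higher and none lower, with a median of 0.13, against 15.0% and 5.89% of all genes. For SW1736-PTX against 8505C wt, 1 of 20 was called higher and none lower, against 15.1% and 5.23% of all genes. SNX10, a sorting nexin on the 3′ side of the HOXA cluster, was listed at 0 in SW1736 wt, whereas it stood at 1.62 FPKM for SW1736-PTX, 0.668 for 8505C wt and 2.21 for 8505C-PTX. The 6 ParaHox genes, the sister cluster of the HOX genes that includes PDX1 and CDX2, were listed at 0 in all 4 libraries.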

How the data were processed

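One mRNA library was sequenced per condition with single-end reads of 75 bp. The authors converted and demultiplexed the raw data with bcl2fastq 2.20, trimmed adapters and low-quality bases (Cutadapt, ERNE), aligned to hg38 with STAR and quantified genes with StringTie. The annotation, strand setting and StringTie version are not given in the sources used here. The coverage, a signal not scaled to depth, FPKM and TPM were deposited by the authors in 1 table per library. No read counts were in these tables, so no count model was used.

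Rows of a repeated gene name were summed. Gene limits (0.5 FPKM, log2 fold change 1.5) are those of the study, and the pseudocount of 0.1 was chosen here. Reads were estimated as FPKM times MANE transcript length (GENCODE 44) times depth, with exact Poisson 95% intervals, and the floor is 3 reads. Intervals and floors cover counting error only. Groups came from the sample titles. The gene rule, the lists (noncoding, flanking, TALE, ParaHox, Polycomb, Trithorax, retinoic acid and marker genes) and the alternatives were chosen with earlier results of these data known. HOX genes called in at least 1 comparison or highest in their cluster are given in all libraries, and others by range; some genes are not reported here. The calls were tested on simulated data made from genes of higher level than most HOX genes. That test does not cover calls that rest on very low values. Sequences came from RefSeq and hg38; protein and promoter sequences were not used here. Python 3.11.15, pandas 2.3.3, NumPy 2.4.6, SciPy 1.17.1 and matplotlib 3.10.9 were used.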

Additional observations from a re-analysis of the deposited data

Results flagged for a closer look

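Among the genes of the retinoic acid pathway, 2 were called in opposite directions in the 2 lines. ALDH1A3, which makes retinoic acid from retinal, stood at 47.1 FPKM for SW1736 wt and 4.23 for SW1736-PTX, a change of -3.45 on the log2(FPKM + 0.1) scale, and at 1.86 for 8505C wt and 10.7 for 8505C-PTX, a change of 2.47. DHRS3, which reduces retinal back to retinol, stood at 53.9 and 12.8 FPKM in the SW1736 pair, a log2 fold change of -2.06, and at 1.22 and 52.4 in the 8505C pair, a log2 fold change of 5.32. With 1 library per condition the difference between the lines was not tested. Against 8505C wt, SW1736-PTX was higher in both genes, with 1.14 for ALDH1A3 and 3.29 for DHRS3. No HOX gene compared in both lines was called in opposite directions. HOXA6 was below 0.5 FPKM in both SW1736 libraries and so was not compared there. Its log2 fold change was -1.60 in the SW1736 pair and 1.60 in the 8505C pair.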

How the results depend on the processing

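No log2 fold change of a called gene changed sign under any alternative run, and of the alternative values of main results 138 stayed within their limits and 78 moved. The moved values include cluster sums in TPM, whose scale is larger than that of FPKM, so their move was set by the unit. Calls and counts in TPM kept the limits and the pseudocount used for FPKM, so they differ partly for the same reason. For SW1736-PTX against SW1736 wt, 7 HOX genes higher and 1 lower became 4 and 0 with a pseudocount of 1 FPKM and 1 and 0 with both libraries above 0.5 FPKM, 2 were lower without a filter and in TPM, and 2 were higher without genes that overlap another gene, an alternative chosen after seeing the data. For 8505C-PTX against 8505C wt, 4 higher became 2 with a pseudocount of 1, 2 after centring on the median of all genes, 9 with a limit of 1 and 0 without overlapping genes. For 8505C wt against SW1736 wt, 5 higher and 1 lower became 1 and 0 with a pseudocount of 1, 0 and 0 with both libraries above 0.5, 2 higher without overlapping genes, and 3 lower without a filter and 4 lower in TPM. For 8505C-PTX against SW1736-PTX, 1 higher became 0 with a pseudocount of 1, with both libraries above 0.5 and without overlapping genes, and 0 lower became 1 without a filter, in TPM and with a limit of 1. For SW1736-PTX against 8505C wt, 2 higher became 6 with a limit of 1 and 0 without overlapping genes. The number of expressed HOX genes in SW1736 wt, 3, became 10 above 0.1 FPKM and 9 above 0.5 TPM, that of SW1736-PTX, 9, became 15 above 0.1 FPKM, and that of 8505C wt, 8, became 5 above 1 FPKM, while without overlapping genes SW1736-PTX, 8505C wt and 8505C-PTX each had 3.

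In TPM, the sums in SW1736 wt, SW1736-PTX, 8505C wt and 8505C-PTX were 4.91, 5.46, 5.4 and 9.95 for HOXA, 1.86, 14.7, 5.72 and 12.4 for HOXB, and 12.1, 68.7, 16.8 and 60.3 for HOXC, and 0.837, 0.177 and 0.568 for HOXD in the last 3. These are the FPKM sums in another unit: over all HOX genes of SW1736 wt, 18.9 TPM stood for 8.28 FPKM. Over the 12 expressed genes, the HOXB sum was 0 FPKM for SW1736 wt, 5.74 for SW1736-PTX and 5.17 for 8505C-PTX, and the HOXD sum 0. The mean absolute log2 difference with a pseudocount of 1 was 1.38 for the SW1736 pair, 0.81 for the 8505C pair, 0.77 between the wt libraries, 1.47 between SW1736 wt and 8505C-PTX and 0.24 between the PTX libraries. It was 3.47 between the wt libraries with a pseudocount of 0.01, and 0.24 between the PTX libraries as a median. Over all 39 members it was 1.15 for the SW1736 pair, 0.57 for the 8505C pair, 0.90 between the wt libraries, 1.19 between SW1736 wt and 8505C-PTX and 0.60 between SW1736-PTX and 8505C wt. Called genes of the lists, in either direction, numbered 0 for the noncoding genes of each line with both libraries above 0.5, and 2 in SW1736 and 1 in 8505C with a pseudocount of 1. In the SW1736 pair they numbered 1 for the flanking genes and 1 for Trithorax under both settings, and 2 for retinoic acid with both libraries above 0.5. In the 8505C pair they numbered 2 for TALE under both settings and 1 for Polycomb with a pseudocount of 1.

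No paired analysis was possible because each condition has 1 library and no replicate number is shared, and leaving out a replicate could not be run for the same reason. A fit with the 2 lines as pairs was not run. Below about 3 reads, 0.0103 to 0.0697 FPKM by gene and library, a HOX gene was not detectable at this depth.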
